A study of Homo sapiens with 7 samples.

Results

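The 37 genes described here are the 13 protein-coding genes of human mitochondrial DNA (mtDNA) and 24 nuclear genes whose products copy, transcribe, process, stabilise or translate it. The rule names them by those roles and uses no measured value, though earlier results of these data were known when it was written. They were found in a deposited table of 33694 genes. The table names the mitochondrial genes without the MT- prefix, so these 13 were matched by Ensembl identifier and the 24 nuclear genes by symbol. All 37 passed the filter on low counts and were among the 12404 genes tested.

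The data come from HK-2 cells, an immortalised human kidney proximal tubule line, after knockdown of GLUT2, the glucose transporter encoded by SLC2A2. The siGLUT2 group (3 libraries, replicates 2 to 4) received siRNA against GLUT2, and its genotype label is GLUT2-KD. The scrambled group (4 libraries, replicates 1 to 4) received siRNA with a scrambled sequence, and its genotype label is WT. Both groups were grown in the same serum-containing DMEM/F12 medium, transfected with 50 nM siRNA using a lipid reagent and lysed 96 h later. The sources used here do not give the siRNA sequences, and all libraries are of a single cell line whose replicates the labels call biological. Within a group, values are listed in the order of the replicate numbers.

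Mitochondrial DNA is a small circle that is transcribed from both strands into long precursors. Most coding regions are flanked by tRNAs, and cutting the tRNAs out releases the individual mRNAs, most of which then receive poly(A) tails. Every product of these mRNAs is a core subunit of a respiratory chain complex or of ATP synthase, the machinery on which the energy-hungry proximal tubule depends. The genome makes no protein for its own expression, so polymerases, RNA-binding proteins and translation factors are imported from the nuclear side.

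Library totals were 5881366, 6914302 and 6435237 counts in siGLUT2 cells and between 5654957 and 8455963 counts in scrambled cells. SLC2A2 had 0 counts in each siGLUT2 library, which allows up to 0.156 CPM over the group (CPM, counts scaled to a common library size), against 13, 13, 7 and 17 counts in scrambled libraries (adjusted p = 0.00850). The siGLUT2 libraries differed more among themselves than the scrambled ones, with a chi-square per degree of freedom between replicate pairs of 9.90 to 16.9 in siGLUT2 cells and 4.73 to 7.85 in scrambled cells. Of 17 proximal tubule markers, LRP2, SLC22A6 and SLC22A8 were among those at 0 in every library, HNF4A did not exceed 0.144 CPM, and PAX8, GGT1, MME, DPP4, MIOX and SLC5A2 were among those measurable. The summed level of all 17 was 437 to 475 CPM in siGLUT2 cells and 463 to 481 CPM in scrambled cells. Of the 7 that were tested, GGT1 and MME were higher in siGLUT2 cells (adjusted p = 0.00740 and 0.00626) and 0 were lower. Summed levels of 5 epithelial markers were 616 to 746 CPM in siGLUT2 cells and 1035 to 1145 CPM in scrambled cells. KRT8, KRT18 and KRT19 were lower. EPCAM (mean 99.4 CPM in siGLUT2 and 98.6 CPM in scrambled cells) and CDH1 (0.815 and 3.15 CPM) did not reach an adjusted p below 0.05. Sums over 6 fibroblast markers were 37.9 to 46.0 CPM in siGLUT2 cells and 11.77 to 14.99 CPM in scrambled cells, led by LUM and COL1A1, while COL3A1 was at 0. Sums over 5 leukocyte markers were 25.1 to 27.2 CPM in siGLUT2 cells and 13.03 to 18.72 CPM in scrambled cells, nearly all of it CD68, with PTPRC, CD3E and LYZ at 0. Endothelial markers summed to 0 to 0.432 CPM in siGLUT2 cells and markers of other nephron segments to 0 to 0.865 CPM, and both were at 0 in scrambled cells. The part of these marker shifts in the results below was not tested.

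Of the 37 genes, 10 were called higher and 4 lower in siGLUT2 cells, where called means an adjusted p below 0.05 in edgeR's quasi-likelihood test. Among all tested genes 28.3% were called, 13.9% higher and 14.4% lower. The rises lay mostly on mtDNA itself: 7 of its 13 coding genes were higher and 1 was lower, with a median log2 fold change of 0.31, against -0.0029 over all tested genes. The 24 nuclear factors had 3 higher, 3 lower and a median of -0.04. CPM values of siGLUT2 and scrambled libraries did not overlap for 8 of the 13 mitochondrial and 6 of the 24 nuclear genes, against 35.1% of all tested genes. In bulk RNA, fewer cells of a type and less RNA per cell cannot be told apart.

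The 13 mitochondrial genes together took 7.40, 7.04 and 7.56% of all counts in siGLUT2 libraries, against 5.04, 5.18, 4.91 and 5.53% in scrambled libraries. The groups did not overlap, and the mean was 7.33% ± 0.265 in siGLUT2 cells (SD, n = 3) and 5.17% ± 0.264 in scrambled cells (SD, n = 4). With MT-ND3, the gene with the largest fold change, taken out, the share was 5.93, 5.59 and 6.03% in siGLUT2 libraries and 4.44, 4.58, 4.33 and 4.89% in scrambled libraries, again without overlap. With MT-ATP6 and MT-ND2 also taken out it was 3.75 to 4.09% in siGLUT2 cells and 3.21 to 3.69% in scrambled cells. The last pair of ranges lay close together but did not meet.

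**Figure D1:**
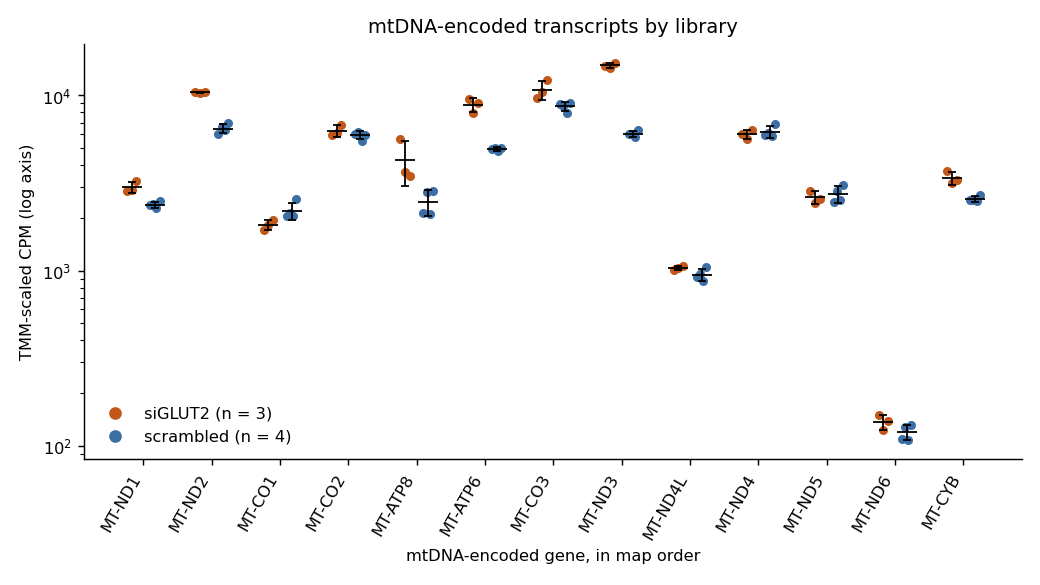
TMM-scaled CPM (log axis) of the 13 mtDNA-encoded genes in map order, with siGLUT2 libraries left of scrambled ones; points are libraries and bars the mean ± SD. MT-ND3 sits between 14418 and 15353 CPM in siGLUT2 cells and between 5794 and 6346 CPM in scrambled cells, whereas the points of MT-ND4 and MT-ND5 intermingle.

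The libraries were made with a 3' method, which favours transcript ends. The ends of the mitochondrial reading frames are therefore shown before the single genes (reference sequence, GRCh38, GENCODE release 29). Capitals mark the stop codon, or the part of it that mtDNA encodes: in several mitochondrial genes the DNA supplies only T or TA, and the poly(A) tail completes the codon. Shown are 3 genes that rose and 1 that was not called, all ending in a bare T, beside 1 gene that rose and 1 that fell with a complete stop.
MT-ND3, chrM:10375-10404, plus strand: gactacaaaaaggattagactgaaccgaaT
MT-ND2, chrM:5482-5511, plus strand: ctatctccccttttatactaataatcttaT
MT-CO3, chrM:9961-9990, plus strand: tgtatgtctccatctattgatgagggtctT
MT-ND4, chrM:12108-12137, plus strand: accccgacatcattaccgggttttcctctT
MT-ATP6, chrM:9178-9207, plus strand: gtaagcctctacctgcacgacaacacaTAA
MT-CO1, chrM:7416-7445, plus strand: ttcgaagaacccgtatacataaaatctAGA

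Genes that rose occurred with both kinds of end. Of the 6 genes with an incomplete stop (MT-ND1, MT-ND2, MT-CO3, MT-ND3, MT-ND4 and MT-CYB), each followed directly by a tRNA gene, 5 were higher and 1 was not called, with log2 fold changes between -0.05 and 1.29. Of the 7 with a complete stop, 2 were higher, 1 was lower and 4 were not called, with log2 fold changes between -0.27 and 0.84. These counts are a description, with no test. The 2 higher genes with a complete stop, MT-ATP8 and MT-ATP6, lie on the same mRNA. A frame end need not be the end of its mRNA: MT-CO1 stops 72 bases before the next gene on its strand, and MT-ND5 598 bases.

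Complex I, the NADH dehydrogenase that feeds electrons into the chain, takes 7 core subunits from mtDNA, and 3 of the 7 rose. MT-ND3 (chrM:10059-10404), a small subunit of the membrane arm, had 14729, 14418 and 15353 CPM in siGLUT2 libraries, against 6012, 6043, 5794 and 6346 CPM in scrambled libraries. The lowest siGLUT2 library lay far above the highest scrambled one. The log2 fold change was 1.29 ± 0.06 (SE; 95% interval 1.16 to 1.42; adjusted p = 2.68e-12), a ratio of means of 2.45. It was the largest fold change of the 37 genes, and it stayed between 1.27 and 1.32 in 20 alternative analyses.

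MT-ND2 (chrM:4470-5511), an antiporter-like subunit of the proton-pumping arm, had 10403, 10386 and 10459 CPM in siGLUT2 libraries, against 5997, 6580.0, 6357 and 6937 CPM in scrambled libraries. The siGLUT2 libraries were nearly identical and all higher, with a log2 fold change of 0.69 ± 0.06 (SE; adjusted p = 6.26e-08). MT-ND1 (chrM:3307-4262), which sits where ubiquinone enters the complex, had 2855, 2886 and 3259.8 CPM in siGLUT2 libraries and 2369.6, 2392, 2264 and 2484 CPM in scrambled libraries. Its groups did not overlap either, and its log2 fold change was 0.34 ± 0.07 (SE; adjusted p = 9.97e-04).

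The other complex I genes were not called. MT-ND4 (chrM:10760-12137), a further antiporter-like subunit, had 6058, 5631 and 6362 CPM in siGLUT2 libraries and 5947, 6095, 5908 and 6882 CPM in scrambled libraries, which overlapped. Its log2 fold change was -0.05 with a 95% interval of -0.19 to 0.10. MT-ND4L (chrM:10470-10766), whose frame overlaps that of MT-ND4 by 7 bases on the same mRNA, had a log2 fold change of 0.13 with an interval of -0.03 to 0.29. MT-ND5 (chrM:12337-14148), at the far end of the membrane arm, had 2867, 2433 and 2559 CPM in siGLUT2 libraries and 2479, 2842, 2519.9 and 3093 CPM in scrambled libraries, with an interval of -0.23 to 0.11. MT-ND6 (chrM:14149-14673), the one coding gene on the minus strand, had 149, 123 and 138 CPM in siGLUT2 libraries and 109.9, 128, 108 and 131 CPM in scrambled libraries, with an interval of -0.04 to 0.42. For the counts, these intervals exclude a change as large as that of MT-ND2 or MT-ND3 but leave room for small ones. MT-ND6 lies opposite the 598 bases between MT-ND5 and MT-CYB, and the strand setting of the counting is not stated. Whether reads of the other strand entered its count was not tested.

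Complex III contributes MT-CYB alone (chrM:14747-15887), the cytochrome b that oxidises ubiquinol. It had 3686, 3152 and 3276 CPM in siGLUT2 libraries, against 2532, 2543, 2489 and 2708 CPM in scrambled libraries. All 3 siGLUT2 values were higher than every scrambled value, and the log2 fold change was 0.39 ± 0.07 (SE; adjusted p = 2.23e-04).

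Of the 3 core genes of complex IV, the cytochrome c oxidase, 1 rose, 1 fell and 1 was not called. MT-CO3 (chrM:9207-9990) had 9613, 10496 and 12288 CPM in siGLUT2 libraries, against 8991, 8738, 7989.8 and 9081 CPM in scrambled libraries, and rose with a log2 fold change of 0.31 ± 0.08 (SE; adjusted p = 0.00360). MT-CO2 (chrM:7586-8269), which receives electrons from cytochrome c, had 5914, 6139 and 6808 CPM in siGLUT2 libraries and 6042, 6220.3, 5523 and 5986 CPM in scrambled libraries. Its groups overlapped, and its log2 fold change was 0.08 with an interval of -0.06 to 0.22.

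MT-CO1 (chrM:5904-7445), which carries the oxygen-reducing centre, was the one mtDNA gene that fell. It had 1703, 1823 and 1943 CPM in siGLUT2 libraries, against 2043, 2143, 2056 and 2553 CPM in scrambled libraries. The groups did not overlap, but the gap was narrow, and the log2 fold change was -0.27 ± 0.08 (SE; adjusted p = 0.0169). The call was lost without scrambled replicate 4, the highest library (adjusted p = 0.108), and without siGLUT2 replicate 3 (adjusted p = 0.0553).

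Both mtDNA genes of ATP synthase rose. MT-ATP6 (chrM:8527-9207), subunit a of the proton channel, had 9599, 7961 and 9036 CPM in siGLUT2 libraries, against 4925, 5041, 4806 and 5020.4 CPM in scrambled libraries. The groups were well apart, with a log2 fold change of 0.84 ± 0.07 (SE; adjusted p = 6.99e-09). MT-ATP8 (chrM:8366-8572), a small subunit whose frame overlaps MT-ATP6 by 46 bases on the same mRNA, had 5666, 3667 and 3484 CPM in siGLUT2 libraries and 2131, 2809, 2107 and 2862 CPM in scrambled libraries. Its log2 fold change was 0.79 ± 0.15 (SE; adjusted p = 0.00164), and it was 0.53, still called, without siGLUT2 replicate 2. The call was lost with no low-count filter (adjusted p = 0.0808). How reads in the shared bases were counted is not stated. The ratio of MT-ATP8 to MT-ATP6 counts was 0.590, 0.461 and 0.386 in siGLUT2 libraries and 0.433, 0.557, 0.438 and 0.570 in scrambled libraries, which overlapped. For MT-ND4L over MT-ND4, the other frames that overlap on a shared mRNA, the ratio was 0.167, 0.184 and 0.167 in siGLUT2 libraries. In scrambled libraries that ratio was 0.155, 0.158, 0.147 and 0.152, without overlap between groups. Frames on a shared mRNA thus need not give the same count ratio in both groups, and the cause was not tested.

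**Figure D2:**
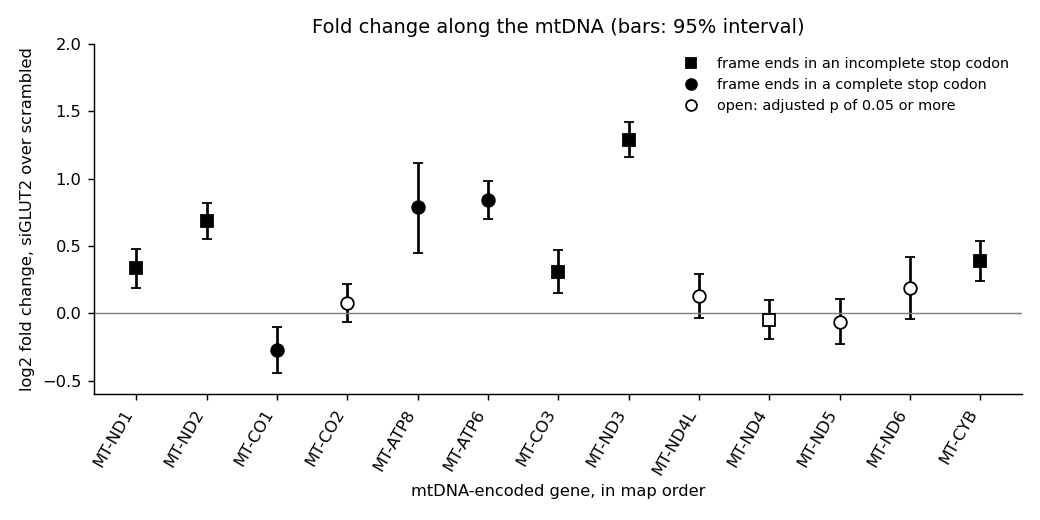
Log2 fold change (siGLUT2 over scrambled) of each mtDNA-encoded gene in map order, with 95% intervals; squares mark an incomplete stop codon, open symbols genes that were not called. MT-ND3 stands highest at 1.29, and MT-CO1 at -0.27 is the one gene called lower.

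Read along the map, the fold changes did not follow a single slope. MT-ND1 and MT-ND2 were higher, MT-CO1 was lower and MT-CO2 was not called. The next 4 genes, MT-ATP8, MT-ATP6, MT-CO3 and MT-ND3, were all higher, whereas MT-ND4L, MT-ND4, MT-ND5 and MT-ND6 were not called and MT-CYB was higher again. Genes close together on the map differed in their ratio: counts of MT-ND3 over MT-ND4, with MT-ND4L between them, were 2.43, 2.56 and 2.41 in siGLUT2 libraries, against 1.01, 0.992, 0.981 and 0.922 in scrambled libraries. MT-CO1 over MT-ND2 was 0.164, 0.176 and 0.186 in siGLUT2 libraries, against 0.341, 0.326, 0.323 and 0.368 in scrambled libraries. Such ratios are taken within a library and do not depend on the scaling between libraries.

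As shares of the mitochondrial pool, 11 of the 13 genes did not overlap between groups, the exceptions being MT-ATP8 and MT-CYB. By CPM it was 8 of the 13. The 35.1% of all tested genes given above is for CPM, and shares of a pool have no such figure beside them. MT-ND3 held 19.8, 20.6 and 20.2% of mtDNA-encoded counts in siGLUT2 libraries, against 11.9, 11.5, 11.9 and 11.5% in scrambled libraries. MT-ND4 held 8.16, 8.03 and 8.37% in siGLUT2 libraries, against 11.8, 11.6, 12.1 and 12.5% in scrambled libraries, although its CPM overlapped. MT-CO1 held 2.29, 2.60 and 2.56% in siGLUT2 libraries and 4.05, 4.08, 4.21 and 4.63% in scrambled libraries. Shares sum to the whole, so a rise of one gene lowers the shares of the others. All are shares of counts from a 3' method and give no order of abundance between genes. The frames of MT-ATP8 and MT-ND4L end inside an mRNA shared with the next gene, so their counts need not come from transcript ends.

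**Figure D3:**
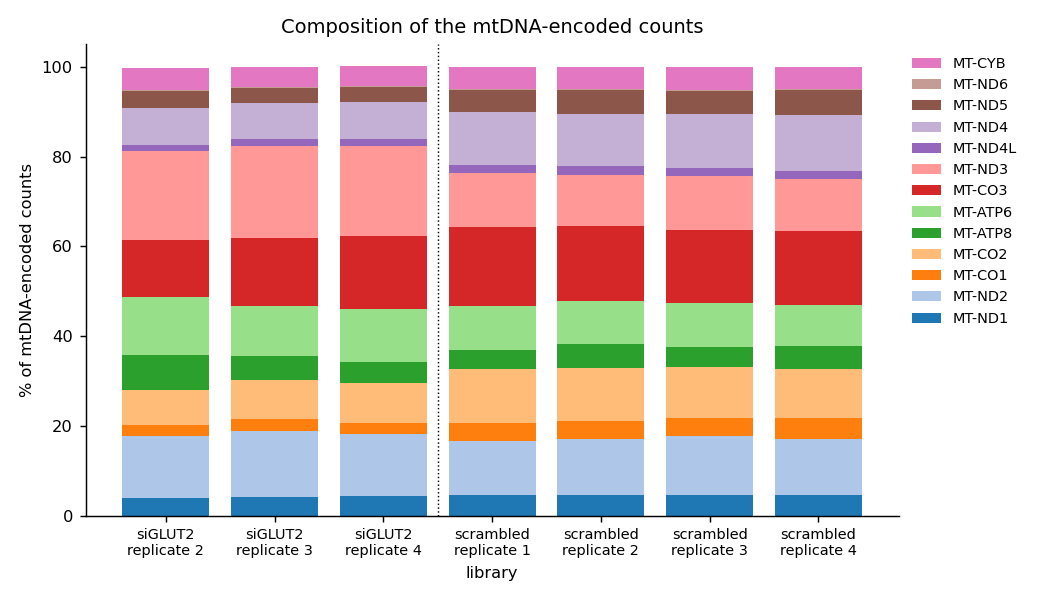
Share of mtDNA-encoded counts (percent) taken by each of the 13 genes in every library, siGLUT2 libraries first. MT-ND3 takes 19.8 to 20.6% in siGLUT2 cells and 11.5 to 11.9% in scrambled cells, while MT-ND4 and MT-CO1 take smaller shares in siGLUT2 cells.

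Nuclear copies of mtDNA can attract mitochondrial reads. The table held 11 rows of the MTRNR2L group, copies of the MT-RNR2 rRNA gene, whose summed counts were 617 to 849 in siGLUT2 libraries and 795 to 1312 in scrambled libraries. Of the 3 that could be tested, MTRNR2L12 was lower with a log2 fold change of -0.45 ± 0.17 (SE; adjusted p = 0.0469). MTRNR2L1, at 0.02, and MTRNR2L3, at -0.04, were not called. These rows copy an rRNA gene and give no measure of reads that the mtDNA coding genes share with nuclear copies. Nuclear copies of the coding genes were not examined. Of the 37 mtDNA genes in GENCODE release 29, the table held rows for the 13 coding genes. The mtDNA rRNA and tRNA genes had no rows and were not analysed here.

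The nuclear factors begin with the 4 that copy mtDNA. POLG, the catalytic subunit of the mitochondrial DNA polymerase, had 33.4, 34.7 and 21.3 CPM in siGLUT2 libraries, against 22.6, 16.9, 19.4 and 18.7 CPM in scrambled libraries. It was called higher (log2 fold change 0.62 ± 0.21, SE; adjusted p = 0.0327), although siGLUT2 replicate 4 lay inside the scrambled range. The call was lost on leaving out any of 5 of the 7 libraries, with adjusted p-values up to 0.145 without siGLUT2 replicate 3. POLG overlaps FANCI by 12064 bases on the opposite strand, and the strand setting of the counting is not stated.

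The accessory subunit gene POLG2 had 6.65, 10.1 and 6.10 CPM in siGLUT2 libraries and 4.62, 3.48, 4.17 and 6.53 CPM in scrambled libraries and was not called (log2 fold change 0.71, interval -0.13 to 1.54). SSBP1, which coats single-stranded mtDNA, had 333, 298 and 288 CPM in siGLUT2 libraries and 337, 379, 382 and 335 CPM in scrambled libraries. The groups did not overlap, but it narrowly missed the threshold (log2 fold change -0.23 ± 0.09, SE; adjusted p = 0.0589). MGME1, an exonuclease that trims mtDNA ends, had a log2 fold change of -0.44 ± 0.17 (SE; adjusted p = 0.0613). Without siGLUT2 replicate 2, SSBP1 and MGME1 were called lower (adjusted p = 0.00877 and 0.00293).

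Of the 5 transcription genes, TFB2M alone was called. TFB2M, which melts the mtDNA promoter for the polymerase, had 35.5, 36.9 and 16.1 CPM in siGLUT2 libraries, against 11.6, 9.35, 23.8 and 16.8 CPM in scrambled libraries. The groups overlapped at siGLUT2 replicate 4, and the log2 fold change was 0.94 ± 0.30 (SE; adjusted p = 0.0212). It was lost on leaving out siGLUT2 replicate 2 or 3 or scrambled replicate 1 or 2, with an adjusted p of up to 0.134.

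TFAM, which packages mtDNA and activates its promoters, had 229.6, 196 and 187 CPM in siGLUT2 libraries and 187, 189.7, 179 and 189 CPM in scrambled libraries. Its log2 fold change was 0.13 with an interval of -0.06 to 0.33, which leaves little room for a large change. POLRMT, the mitochondrial RNA polymerase, had 14.5, 24.4 and 30.3 CPM in siGLUT2 libraries and 21.3, 28.3, 18.3 and 20.5 CPM in scrambled libraries, with an interval of -0.44 to 0.56. The elongation factor gene TEFM (log2 fold change -0.45, interval -1.23 to 0.33) and the rRNA methyltransferase gene TFB1M (-0.26, interval -0.78 to 0.27) were low in counts and not called. For these the intervals are wide.

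Among 5 RNA processing genes, TRMT10C rose and GRSF1 fell. TRMT10C, a subunit of the RNase P that cuts tRNAs at their 5' ends, had 102, 56.6 and 85.2 CPM in siGLUT2 libraries, against 49.5, 49.7, 49.7 and 50.6 CPM in scrambled libraries. The scrambled libraries were nearly equal and every siGLUT2 library was higher, with a log2 fold change of 0.70 ± 0.16 (SE; adjusted p = 0.00203). GRSF1, an RNA-binding protein of mitochondrial RNA granules, had 106, 87.9 and 95.5 CPM in siGLUT2 libraries, against 123, 128, 156 and 141 CPM in scrambled libraries. The groups did not overlap, and the log2 fold change was -0.51 ± 0.12 (SE; adjusted p = 0.00202). Both calls held in 20 of 20 alternatives.

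ELAC2, the RNase Z that cuts tRNAs at their 3' ends, was not called (log2 fold change 0.13, interval -0.18 to 0.43). FASTKD5, needed to mature precursors that no tRNA flanks, had 47.4, 23.8 and 29.6 CPM in siGLUT2 libraries and 33.1, 25.2, 23.1 and 19.8 CPM in scrambled libraries (log2 fold change 0.40, interval -0.07 to 0.88). Its locus overlaps UBOX5 on the same strand by 13379 bases. FASTKD2, an rRNA-binding protein, had 34.4 ± 0.874 CPM in siGLUT2 cells (SD, n = 3) and 34.3 ± 4.20 CPM in scrambled cells (SD, n = 4).

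The 5 genes for RNA stability and decay did not pass the test, and their unadjusted p-values ran between 0.0657 and 0.983. DESeq2 called 0 of the 5. LRPPRC, which with SLIRP holds mitochondrial mRNAs stable and open to polyadenylation, had 128, 117 and 118 CPM in siGLUT2 libraries and 132, 134, 159 and 132 CPM in scrambled libraries. Its groups did not overlap, by a small margin, and its log2 fold change was -0.21 with an interval of -0.43 to 0.01. SLIRP had 329.8, 242 and 233 CPM in siGLUT2 libraries and 276, 279, 327 and 267 CPM in scrambled libraries, an overlap. It was called lower without siGLUT2 replicate 2 (adjusted p = 0.0205), and it shares 43506 bases with SNW1 on the opposite strand. MTPAP, the mitochondrial poly(A) polymerase, had a log2 fold change of -0.09 (interval -0.52 to 0.35). PNPT1 and SUPV3L1, the exonuclease and helicase of the degradosome, had -0.06 (interval -0.37 to 0.25) and -0.00 (interval -0.44 to 0.43).

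Of the 3 translation genes, TUFM and MTIF2 fell. TUFM, the elongation factor Tu that delivers aminoacyl-tRNAs, had 60.7, 134 and 140.1 CPM in siGLUT2 libraries, against 204, 214, 181 and 179 CPM in scrambled libraries. Every siGLUT2 library was lower, replicate 2 by far the most, and the log2 fold change was -0.80 ± 0.20 (SE; adjusted p = 0.00843). Without siGLUT2 replicate 2 it was -0.51, still called. MTIF2, the initiation factor that brings formyl-methionyl-tRNA to the ribosome, had 73.7, 61.5 and 48.6 CPM in siGLUT2 libraries, against 80.6, 85.7, 79.9 and 76.4 CPM in scrambled libraries. The groups just failed to meet, at a log2 fold change of -0.40 ± 0.14 (SE; adjusted p = 0.0372), and the call was kept in 1 of 7 analyses that left out a library. GFM1, the elongation factor G of translocation, was not called (log2 fold change 0.09, interval -0.20 to 0.37).

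**Figure D4:**
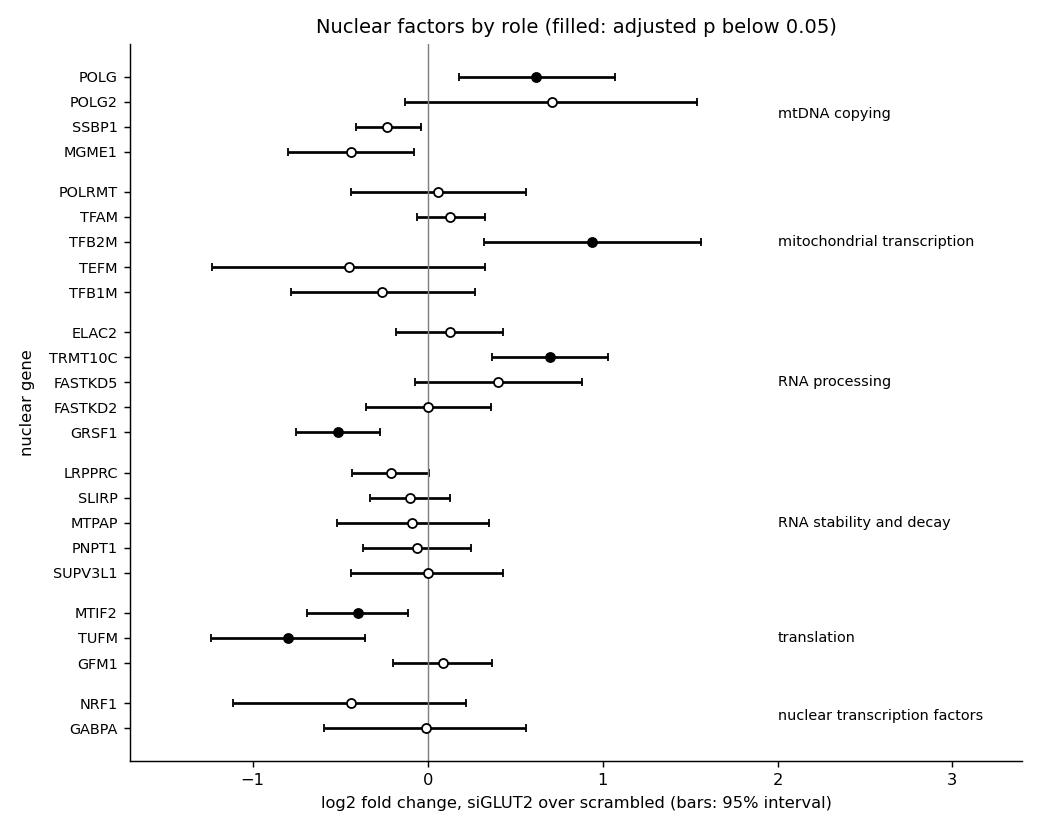
Log2 fold change (siGLUT2 over scrambled) with 95% intervals of the 24 nuclear genes, grouped by role, with called genes filled. POLG, TFB2M and TRMT10C were called higher, GRSF1, MTIF2 and TUFM lower, and the intervals of the weakly counted POLG2, TEFM and NRF1 are the widest.

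**Figure D5:**
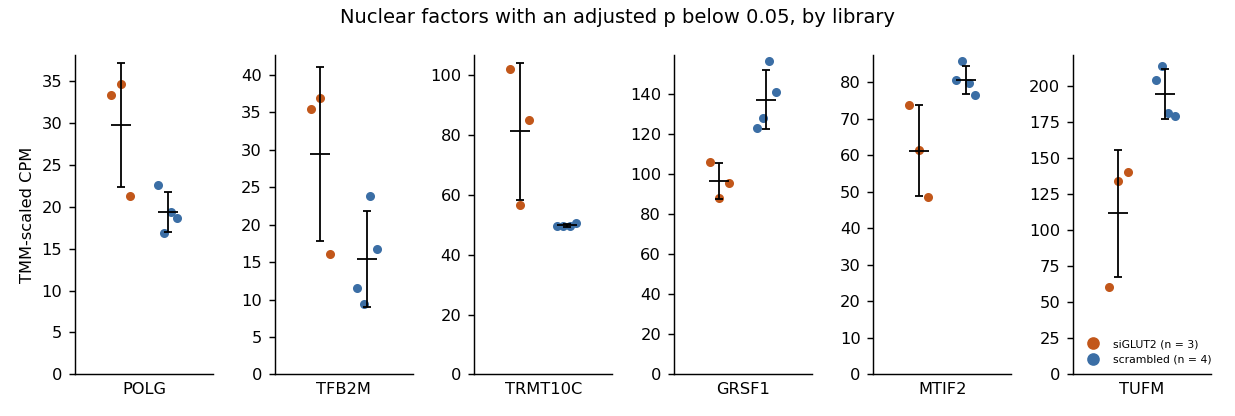
TMM-scaled CPM (points, with mean ± SD) of the 6 called nuclear genes in each library, siGLUT2 left of scrambled. TRMT10C, GRSF1, MTIF2 and TUFM have no overlap between groups, whereas siGLUT2 replicate 4 of POLG, at 21.3 CPM, and of TFB2M, at 16.1 CPM, lies within the scrambled points.

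NRF1 and GABPA, transcription factors of nuclear genes for mitochondrial proteins, were not called. NRF1 averaged 10.4 ± 4.30 CPM in siGLUT2 cells (SD, n = 3) and 14.2 ± 3.94 CPM in scrambled cells (SD, n = 4), with an interval of the log2 fold change of -1.11 to 0.22. GABPA had 13.3, 9.51 and 18.1 CPM in siGLUT2 libraries and 11.9, 14.2, 12.9 and 16.2 CPM in scrambled libraries, with an interval of -0.59 to 0.56. Both pairs of groups overlapped, and GABPA shares 1104 bases with ATP5PF on the opposite strand.

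Since these factors bind short promoter words, the promoters of the nuclear genes were searched on both strands (RefSeq, GRCh38.p14, 250 bases before to 50 after each start; 22 of 24 genes matched). The NRF1 word GCATGCGC stood in 4 of the 22 genes (18.2%), against 3.68% of 27305 genes with a promoter. The ETS word CCGGAAG, which GABPA can bind, stood in 12 of the 22 (54.5%), against 12.2% of all genes. The 27305 genes include many outside the 12404 tested here, whereas all 24 nuclear factors were tested. Shares among tested genes alone were not computed. TFB1M and POLRMT held both. Neither word contains the other, and a gene counts once even where a word overlaps its own reverse complement, as in TFB1M. The stretches of called genes are shown with the words in capitals.
TFB2M, chr1:246566259-246566286, minus strand: tccgctgttcGCATGCGCaggctctagt
TRMT10C, chr3:101561810-101561857, plus strand: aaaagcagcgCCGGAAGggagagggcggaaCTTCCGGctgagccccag
TUFM, chr16:28846339-28846366, minus strand: ctaacttccgCCGGAAGtgccttccagc
TFB2M, which rose, held the NRF1 word. The ETS word stood in the promoters of TRMT10C, which rose, and of TUFM, which fell. MTIF2, which fell, held the ETS word at 2 places, and the windows of POLG and GRSF1 held neither word. A match is a description of letters, not of a bound site.

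An earlier scan of these same fold changes had picked the 3' UTR words GACCTTA and ACCTTAA, which occur in 15.4% of 11621 tested genes with an annotated 3' UTR. Among those 1789 genes 195 were called higher and 380 lower, with a median log2 fold change of -0.10. All 11621 genes had 1680 higher, 1717 lower and a median of 0.00. Because the words were picked from these fold changes, the split was built into the choice and is no separate evidence. Of the 24 nuclear factors, TEFM alone held a word, ACCTTAA, at positions 315 and 489 of its 3' UTR. None of the 6 called nuclear factors held one. MT-ND1 holds GACCTTA and MT-ND5 ACCTTAA within the coding sequence, and the first rose while the second was not called.

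Other nuclear genes of the same pathways were taken from lists drawn up by function. Their counts stand against 13.9% called higher and 14.4% called lower among all tested genes. No list was tested as a set. Of 14 further genes of mtDNA replication and the nucleoid, 1 was higher and 5 were lower, with a median log2 fold change of -0.27. HMGA1, a DNA-binding protein best known from nuclear chromatin, rose (0.74 ± 0.08, SE; adjusted p = 8.05e-07). FEN1, a flap endonuclease (-0.87 ± 0.15), LIG3, the ligase that seals mtDNA (-0.78 ± 0.22), and ATAD3B, a nucleoid-associated membrane protein (-1.14 ± 0.23), fell. Of 16 genes of nucleotide supply, 2 were higher and 5 lower. The ribonucleotide reductase subunits RRM1 (-0.85 ± 0.08) and RRM2 (-0.73 ± 0.10) were lower, as were MPV17 (-1.44 ± 0.22), whose loss depletes mtDNA in humans, and the matrix kinase AK3 (-1.60 ± 0.25).

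Of 10 further transcription-related genes, 1 was higher and 2 lower. MRPL12, a ribosomal protein that also binds POLRMT, averaged 30.5 ± 5.65 CPM in siGLUT2 cells (SD, n = 3) and 60.9 ± 3.61 CPM in scrambled cells (SD, n = 4), and fell by 0.99 on the log2 scale. FASTK rose (0.63 ± 0.11) and its relative TBRG4 fell (-0.53 ± 0.19). Of 29 further genes of tRNA and RNA processing, 4 were higher, among them the pseudouridine synthases RPUSD4 (0.80 ± 0.18) and TRUB2 (0.54 ± 0.15). Another 4 were lower, among them RPUSD3 of the same family (-0.70 ± 0.19) and LACTB2, an endoribonuclease of the matrix (-0.83 ± 0.14). Both counts of 4 lay close to the shares called among all tested genes.

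Of 27 genes of translation and ribosome assembly, 5 were lower. CMC1, an early assembly factor of complex IV, had 0, 1.30 and 0 CPM in siGLUT2 libraries, against a mean of 16.2 ± 4.89 CPM in scrambled cells (SD, n = 4). No siGLUT2 library came near the scrambled level, and its adjusted p was 2.40e-06. The ribosome assembly factors RBFA (-0.79 ± 0.22), MTG2 (-0.54 ± 0.17) and NGRN (-1.46 ± 0.45) were the others with the smallest adjusted p. Of 22 genes for aminoacyl-tRNA synthetases and amidotransferase subunits (QRSL1, GATB and GATC), 1 was higher, GARS1 (0.49 ± 0.11). Another 3 were lower, among them IARS2 (-0.54 ± 0.12) and KARS1 (-0.25 ± 0.09). GARS1 and KARS1 also serve the cytosol.

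Of 17 tested biogenesis regulators, ESRRA (0.62 ± 0.20) and MYC (0.61 ± 0.17) rose, and YY1 (-0.28 ± 0.08) and GABPB2 (-1.87 ± 0.37), a partner subunit of GABPA, fell. Of 18 genes of mitochondrial RNA sensing and protein import, TOMM20, a receptor of the outer membrane, rose (0.40 ± 0.11). TIMM50 of the inner membrane translocase fell (-1.10 ± 0.14), as did the prohibitin PHB1 (-0.56 ± 0.09) and the protease AFG3L2 (-0.45 ± 0.12). The median log2 fold changes of the lists lay between -0.27 and 0.17, against 0.31 for the 13 mtDNA-encoded genes.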

How the data were processed

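Raw counts per gene for 7 libraries (3 siGLUT2, 4 scrambled) were taken from the table the authors deposited. Per the labels' protocols, a commercial service made 3' digital libraries from 125 ng of total RNA and read them single-end for 100 cycles. The submitters' processing notes name STAR, HTSeq, edgeR and hg38, with neither role nor version. The sources used here do not state the annotation release, the strand setting or whether molecular identifiers were used. Without identifiers reads are not independent molecules, so the limit from a count of 0 covers counting error only.

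Groups came from the sample titles. All genes were tested in one fit with edgeR 4.0.16 (R 4.3.3). Low counts were removed with filterByExpr, with a minimum count of 10 and a minimum total of 15, and libraries were scaled by TMM. A robust quasi-likelihood test of siGLUT2 against scrambled, without covariates, was adjusted by Benjamini-Hochberg over 12404 genes, with a threshold of 0.05. CPM values were computed from the counts with TMM scaling. The standard error is the absolute log2 fold change divided by the square root of F, and 95% intervals use the t distribution of the test's degrees of freedom. The fit was tested on simulated data with known changes. Replicate pairs differed by more than sampling noise, so none was merged. A p-value here measures only the spread between libraries of 1 cell line, which may be technical.

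Positions and mtDNA sequences come from GENCODE release 29 (33132 identifiers matched) and promoters from RefSeq. All 37 genes are named, with up to 4 genes of each further list, those with the smallest adjusted p below 0.05, and the 3 nuclear copies with the highest CPM. Some genes of the further lists are counted but not reported here by name. The further lists, like the 37 genes, were chosen with earlier results of these data known. Alternatives were RLE, upper quartile and total scaling, scaling without mtDNA-encoded genes, other low-count filters, DESeq2 1.42.0, limma-voom (limma 3.58.1), a non-robust fit, a replicate block, thinning, protein-coding genes alone, an adjusted p of 0.01 and each library left out.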

Additional observations from a re-analysis of the deposited data

Results flagged for a closer look

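In scrambled cells, LRPPRC had 159 CPM in replicate 3, whereas the other scrambled libraries lay between 132 and 134 CPM. The gap to the nearest library took 0.938 of the group's range, above Dixon's 95% critical value for 4 libraries. It was the 1 such case among 38 groups examined, where chance gives about 1 in 20, and the cause was not tested.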

How the results depend on the processing

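Over all tested genes, 3509 were called, 2264 with an adjusted p below 0.01, and between 2796 and 3778 with a library left out. Of the mtDNA-encoded genes, 7 were higher with every library left out in turn. MT-CO1 was the 1 lower, and 0 were lower without siGLUT2 replicate 3, without scrambled replicate 4 or with an adjusted p below 0.01. MT-ATP8 lost its call with no low-count filter (adjusted p = 0.0808). Nuclear genes called higher numbered 3, between 1 and 3 with a library left out, and 1 with an adjusted p below 0.01. Nuclear genes called lower numbered 3, and between 2 and 6 with a library left out, 6 of them without siGLUT2 replicate 2. Replicate numbers did not pair the samples (correlations of deviations 0.01, 0.015 and -0.003). With the replicate number as a block, 2649 genes were called, and 1 nuclear gene was higher and 2 were lower. The difference in mitochondrial share of counts was 2.17 percentage points and 2.06 to 2.31 with a library left out. The alternative that adds mtDNA rRNA and tRNA rows could not be computed, since the table held no such rows.

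Of the single values, 685 kept direction and call, 25 lost a call, 7 gained one and 23 changed sign, all of the last in genes that were called in neither analysis. FASTKD2 was -0.01 with no low-count filter and -0.00 with the stricter filter, PNPT1 was 0.00 with thinning, and SUPV3L1 was 0.01 with upper quartile scaling and 0.06 with thinning. With a library left out, MT-ND4 ran between -0.09 and 0.01, MT-ND5 between -0.13 and 0.01, POLRMT between -0.18 and 0.30, TFB1M between -0.42 and 0.00, ELAC2 between -0.00 and 0.22, and FASTKD2 between -0.05 and 0.06. MTPAP ran between -0.31 and 0.09, SUPV3L1 between -0.22 and 0.15, GFM1 between -0.13 and 0.18, and GABPA between -0.28 and 0.19. The alternatives moved the median of all tested genes to between -0.0941 and 0.0074. POLG2, TEFM and NRF1, with the lowest CPM, had the widest intervals of the nuclear genes, and a change inside an interval could not be told from none with these libraries.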
